A study of Mus musculus with 14 samples.

Results

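The genes described here encode the enzymes and pumps with which the jejunum handles foreign compounds. A fixed list of 40 names chose them, 15 of cytochromes P450 and their reductase, 11 of glutathione transferases, 2 of efflux pumps, 7 of esterases, hydrolases and other phase I enzymes, and 5 of sulfotransferases and glucuronidation. Of the 40 genes, 37 had a probe set with a single gene symbol, out of 22180 such genes on the arrays, and 36 were bright enough to be tested, out of 18010. Cyp2c38 lay below the intensity filter, with a log2 level of 5.91 ± 0.35 in K289R and 5.99 ± 0.41 in WT (SD, n = 7 each). Por, Gsta1 and Ces2c had no probe set with a single symbol and are not analysed here.

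Xenobiotic metabolism is usually taught in phases. Phase I enzymes such as cytochromes P450, carboxylesterases and epoxide hydrolases oxidise, split or hydrate a compound, phase II enzymes join it to glutathione, sulfate or glucuronic acid, and pumps of the ABC family move drugs or conjugates out of the cell. In the small intestine the enterocyte carries out these steps on what has been eaten before it reaches the liver. Many of the genes answer to ligand-activated regulators: PXR (Nr1i2) and CAR (Nr1i3) act on Cyp3a and Cyp2b genes, AHR on Cyp1a1, and NRF2 (Nfe2l2) on glutathione transferases.

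The data are whole-tissue jejunal RNA profiles of 14 mice on Affymetrix arrays, 1 array per mouse. Mice of 1 group carried LRH-1 K289R (7 mice) and those of the other LRH-1 WT (7 mice). Both groups were 19 to 21 weeks old, kept 5 to a cage, fed freely and killed at 7 am, and the labels give no strain, sex or litter for a mouse. LRH-1, the product of Nr5a2, is a nuclear receptor of liver and gut, and K289R replaces a lysine to which the small protein SUMO can be attached, so the comparison asks whether levels of these genes differ with that site altered.

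The arrays had median intensities of 168 to 174. Their levels correlated with r between 0.981 and 0.993 among K289R arrays, 0.983 and 0.994 among WT arrays, and 0.979 and 0.994 across genotypes. The epithelial marker Vil1 had a log2 level of 12.96 ± 0.05 in K289R and 13.01 ± 0.07 in WT (SD, n = 7 each). The hepatocyte gene Alb lay near the filter of 6.25, with 6.94 ± 0.25 in K289R and 6.95 ± 0.11 in WT, and 5 of 12 hepatocyte markers lay below the filter. Of the 7 above it, Cps1, a urea cycle gene that the small intestine also expresses, had 12.66 ± 0.23 in K289R and 12.62 ± 0.04 in WT, and Ttr had 8.48 ± 0.15 in K289R and 8.59 ± 0.14 in WT. The series title speaks of hepatic data, and the tissue is called jejunum here, as the sample labels name it. The ileal gene Fabp6, which encodes a bile acid binding protein, was above a log2 level of 8 on 4 arrays: K289R replicates 2 (10.71) and 7 (9.91), and WT replicates 1 (12.52) and 6 (9.18). On the other 10 arrays it lay between 6.09 and 6.63. These 4 arrays stand apart in Fabp6 level, the cause of which was not tested. Several differences and correlations are given with and without them, and the spread between mice with all arrays only.

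Between the genotypes, no xenobiotic gene on the list passed the threshold. Of the 36 tested, 0 had an adjusted p under 0.05 in limma, where 8 of all 18010 genes did (0.0444%), and the lowest adjusted p on the list was 0.394. At an adjusted p under 0.1 the list still had 0, and all genes 18 (0.0999%). At an unadjusted p under 0.05, 5 of the 36 counted (13.9%) against 8.48% of all genes, 1 higher in K289R (4.43% of all genes) and 4 lower (4.05%). Without a threshold, 13 were higher and 23 lower in K289R, where 52.0% of all genes were lower. The median difference was −0.05 on the log2 scale, against −0.0039 over all genes. In 0 of the 36 did the arrays of the genotypes fail to overlap, against 0.167% of all genes. In whole tissue, fewer cells of a type and less RNA per cell cannot be told apart.

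**Figure D1:**
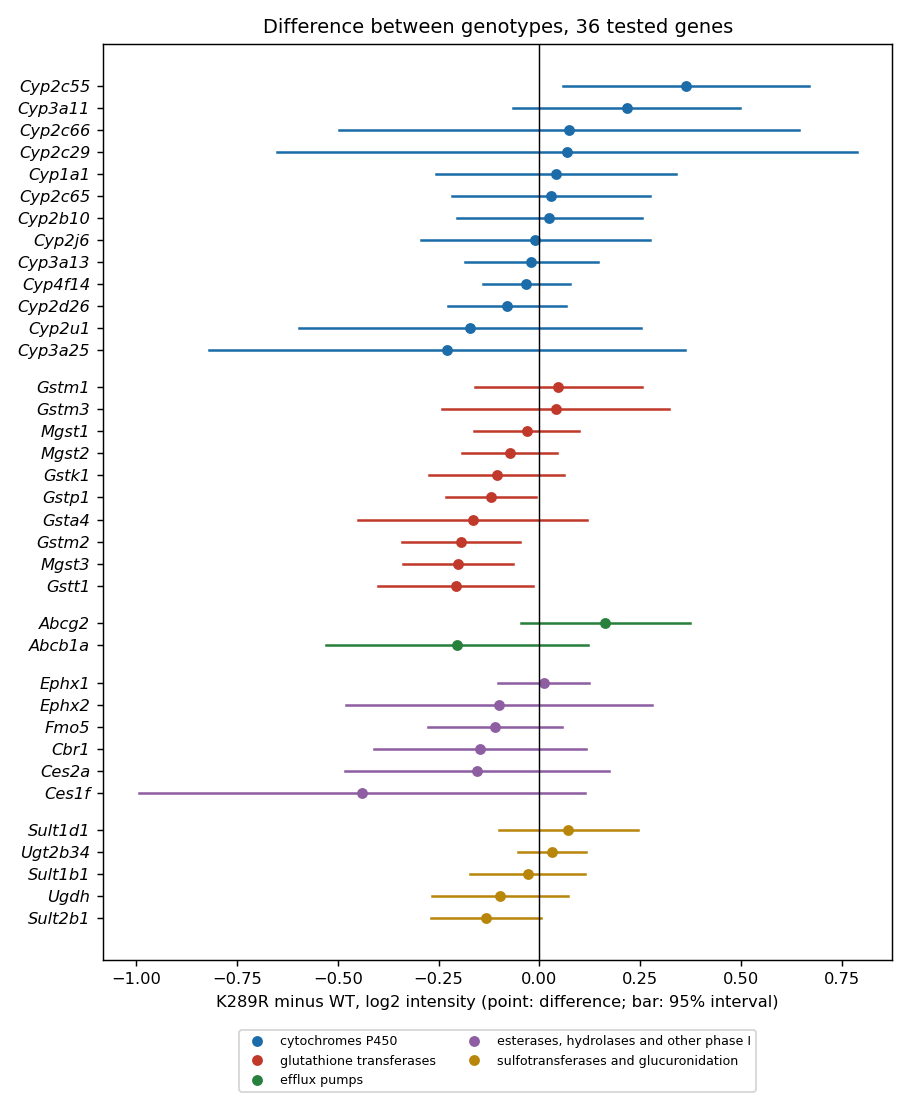
Difference between genotypes for each of the 36 tested genes, K289R minus WT in log2 intensity, grouped by role. Points are limma estimates and bars their 95% intervals (7 mice per genotype). The intervals of Cyp2c55, Gstm2, Mgst3, Gstt1 and Gstp1 leave out 0, and those of Cyp2c29, Cyp3a25, Cyp2c66 and Ces1f span more than 1 log2 unit.

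The cytochromes P450, haem enzymes that oxidise drugs, steroids and fatty acids, split almost evenly. Of 13 tested, 7 were higher and 6 lower in K289R, with a median difference of 0.02. Cyp2c55, a member of the Cyp2c family that oxidises fatty acids and drugs, gave the largest difference of the 13. Its log2 level ran from 10.34 through a median of 10.80 to 11.07 in K289R, against 9.81 through 10.47 to 10.61 in WT. Every K289R array lay above the WT mean, but the ranges overlapped. The difference was 0.36 (SE 0.145, 95% interval 0.06 to 0.67), a fold of 1.29, with a limma adjusted p of 0.486 and an exact permutation p of 0.0478. A second, dimmer probe set of Cyp2c55 gave 8.16 in K289R and 8.23 in WT, a difference of −0.07, and the mean over both gave 0.15.

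Cyp3a11, the main drug-oxidising CYP3A enzyme of mouse liver and gut and a classical PXR target, ran from 10.18 through 10.68 to 11.12 in K289R, against 10.02 through 10.53 to 10.78 in WT. The genotypes overlapped over most of that span, and the difference was 0.22 (SE 0.134, adjusted p = 0.665). Cyp3a25 and Cyp3a13, the other CYP3A genes listed, differed by −0.23 (SE 0.280) and −0.02 (SE 0.078). Cyp3a25 covered 7.90 to 9.66 in K289R and 8.20 to 9.72 in WT, so its spread within a genotype was several times its difference. Cyp2b10, the classical CAR target, differed by 0.02 (SE 0.109), with 11.89 to 12.53 in K289R and 11.82 to 12.46 in WT.

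The remaining Cyp2c genes varied widely between mice of 1 genotype. Cyp2c29 covered 7.52 to 9.24 in K289R and 7.13 to 9.26 in WT, a 4.38-fold span over the 14 arrays, and its difference of 0.07 had an SE of 0.340. A dimmer second probe set of Cyp2c29 gave −0.23. Cyp2c66 covered 8.58 to 10.25 in K289R and 8.40 to 10.19 in WT, with a difference of 0.07 (SE 0.270). Cyp2c65 covered 11.26 to 12.08 in K289R and 11.37 to 11.92 in WT, with a difference of 0.03 (SE 0.116). These genes are close relatives, and how far their probes share signal was not tested.

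Outside these families the P450 differences ran from −0.17 to 0.04. Cyp1a1, which oxidises polycyclic aromatic hydrocarbons and is switched on through AHR, covered 7.46 to 8.23 in K289R and 7.13 to 8.13 in WT, with a difference of 0.04 (SE 0.141). Cyp2j6, an epoxygenase of arachidonic acid, differed by −0.01 (SE 0.135) and ranged from 10.46 to 11.23 in K289R and from 10.57 to 11.36 in WT. Cyp2u1, a fatty acid hydroxylase, differed by −0.17 (SE 0.201) and ranged from 9.14 to 10.46 in K289R and from 9.48 to 10.47 in WT. Cyp2d26 differed by −0.08 (SE 0.069) and Cyp4f14, a fatty acid omega-hydroxylase with the narrowest spread among the P450 genes, by −0.03 (SE 0.051).

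Promoter windows were searched for the motifs of regulators of these genes, 250 bases before to 50 after the annotated start, in RefSeq sequences of build GRCm38.p6. Of the 36 tested genes, 32 had a window, and Ces1f, Cyp2u1, Ephx2 and Gsta4 had none. Of 8 motifs searched on both strands, the HNF4 motif CAAAGTNCA differed most from its share over all genes with a window. It was found for 5 of 32 genes (15.6%), against 1.64% of 27025 genes. The 27025 include genes not tested or not expressed in jejunum. The share among tested or epithelial genes was not computed, so the gap cannot be read as particular to xenobiotic genes. HNF4A and HNF4G are nuclear receptors of the enterocyte. The 5 genes were Cyp3a11, Cyp2c65, Cyp2d26, Abcb1a and Sult1b1. The windows of 3 of them are shown 5′ to 3′ on the gene's strand, a CYP3A gene, a CYP2C gene and a pump, with the HNF4 motif in capitals. Their positions are chr5:145879805-145880104 on the minus strand for Cyp3a11, chr19:39060756-39061055 on the plus strand for Cyp2c65, and chr5:8566841-8567140 on the plus strand for Abcb1a.
Cyp3a11: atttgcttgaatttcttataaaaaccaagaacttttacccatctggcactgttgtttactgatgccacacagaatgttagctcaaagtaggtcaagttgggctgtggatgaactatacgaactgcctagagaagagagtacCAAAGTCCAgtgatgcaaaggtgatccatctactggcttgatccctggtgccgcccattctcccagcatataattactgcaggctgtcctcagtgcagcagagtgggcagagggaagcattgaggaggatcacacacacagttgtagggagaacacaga
Cyp2c65: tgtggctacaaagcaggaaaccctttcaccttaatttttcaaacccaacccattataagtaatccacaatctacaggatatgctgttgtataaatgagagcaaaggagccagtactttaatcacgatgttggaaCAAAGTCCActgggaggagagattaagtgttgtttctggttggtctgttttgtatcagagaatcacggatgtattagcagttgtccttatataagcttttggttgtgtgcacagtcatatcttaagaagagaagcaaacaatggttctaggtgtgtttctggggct
Abcb1a: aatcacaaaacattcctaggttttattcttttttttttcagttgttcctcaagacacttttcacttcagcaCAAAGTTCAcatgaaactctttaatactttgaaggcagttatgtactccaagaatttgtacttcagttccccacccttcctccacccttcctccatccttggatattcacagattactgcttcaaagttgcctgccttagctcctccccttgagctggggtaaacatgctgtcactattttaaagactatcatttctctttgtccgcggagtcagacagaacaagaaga

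The first base of the motif lies at −109 from the start in Cyp3a11, −116 in Cyp2c65 and −179 in Abcb1a, where it overlaps the half-site AGTTCA. In Cyp2d26 it lies at −58 and in Sult1b1 at 25, past the start. The nuclear receptor half-sites AGGTCA and AGTTCA were found for 8 (25%) and 5 (15.6%) of the 32 genes. Of all genes with a window, 18.1% and 15.7% had them. The GATA motifs AGATAA and TGATAA were found for 5 genes each (15.6%), against 12.7% and 10.4%. The antioxidant response element TGACNNNGC of NRF2 was found for 7 genes (21.9%), against 14%. The AHR core GCGTG was found for 12 (37.5%), Cyp1a1 among them, against 35.2%. The motif TTANGTAA of the clock-driven factors DBP, HLF and TEF was found for 0 of the 32, against 2.72% of all genes with a window. A match describes letters in a window and is no evidence of binding, and elements farther from the start lie outside these windows.

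Glutathione transferases, which join glutathione to electrophiles, had 0 of 10 tested past the threshold. In K289R 2 were higher and 8 lower (52.0% of all genes were lower), with a median of −0.11, and 4 of the 8 had an unadjusted p under 0.05, as did 4.05% of all genes in that direction. Mgst3, a microsomal transferase that also reduces lipid peroxides, ran from 10.31 through 10.39 to 10.61 in K289R, against 10.46 through 10.63 to 10.83 in WT. Its 7 K289R arrays all lay below the WT mean, and the ranges overlapped. The difference was −0.20 (SE 0.065, fold 0.869), with a limma adjusted p of 0.394 and an exact permutation p of 0.0105.

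Gstm2, a mu-class enzyme, ran from 8.34 through 8.56 to 8.70 in K289R, against 8.58 through 8.76 to 8.95 in WT. Again the 7 K289R arrays lay below the WT mean, and the difference was −0.19 (SE 0.070, fold 0.874, limma adjusted p = 0.442, exact permutation p = 0.0198). Gstt1, of the theta class that acts on small halogenated compounds, ran from 9.94 through 10.26 to 10.57 in K289R, against 10.21 through 10.54 to 10.68 in WT. Of its K289R arrays, 6 of 7 lay below the WT mean (difference −0.21, SE 0.091, limma adjusted p = 0.541, exact permutation p = 0.0600). Gstp1, the pi-class enzyme, ran from 11.94 through 12.01 to 12.15 in K289R, against 12.01 through 12.14 to 12.27 in WT, with 6 of 7 K289R arrays below the WT mean (difference −0.12, SE 0.053, limma adjusted p = 0.545, exact permutation p = 0.0280). A probe set that Gstp1 shares with another symbol was left out, as were 2 shared ones of Cyp3a11 and 3 of Gsta1.

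**Figure D2:**
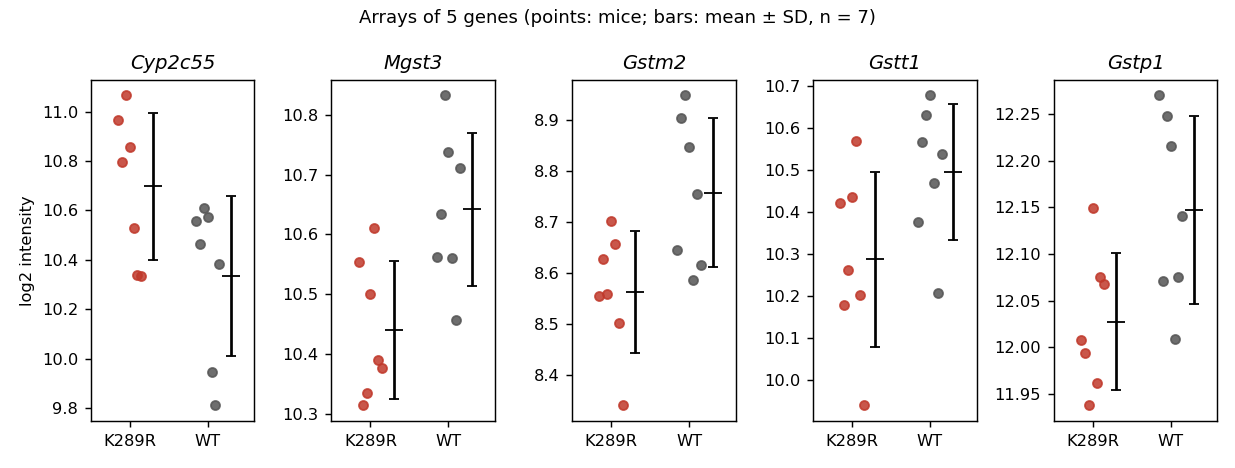
Log2 intensity of the 5 genes with an unadjusted p under 0.05, Cyp2c55, Mgst3, Gstm2, Gstt1 and Gstp1, with 1 point per mouse and the mean ± SD of 7 mice, K289R left and WT right in each panel. Cyp2c55 was higher in K289R and the other 4 lower, and in each panel the points of the genotypes overlap. The axes do not start at 0 and differ between panels.

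The other glutathione transferases had an unadjusted p above 0.05. Gsta4, which clears the lipid peroxidation product 4-hydroxynonenal, differed by −0.17 (SE 0.135), with 9.59 to 10.59 in K289R and 10.06 to 10.71 in WT. Gstm1 and Gstm3, mu-class relatives of Gstm2, differed by 0.05 (SE 0.098) and 0.04 (SE 0.134). Gstm1 covered 8.73 to 9.22 in K289R and 8.67 to 9.25 in WT, and Gstm3 11.52 to 12.32 in K289R and 11.48 to 12.23 in WT. Gstk1, of the mitochondrial and peroxisomal kappa class, Mgst2 and Mgst1 differed by −0.11, −0.07 and −0.03.

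The pumps had differences of opposite sign, and neither passed. Abcg2, the breast cancer resistance protein that returns drugs and urate to the lumen, ran from 10.36 through 10.43 to 10.83 in K289R, against 10.17 through 10.24 to 10.85 in WT. All 7 K289R arrays lay above the WT mean, and the highest WT value was replicate 1, with strong Fabp6 signal, while the other 6 WT arrays reached at most 10.41. The difference was 0.16 (SE 0.099, limma unadjusted p = 0.118, adjusted 0.658) with all arrays. Without the 4 Fabp6 arrays it was 0.28 (SE 0.085, limma unadjusted p = 0.00616, adjusted 0.658). Abcb1a, a P-glycoprotein gene, ran from 10.41 through 10.67 to 11.24 in K289R, against 10.62 through 10.85 to 11.70 in WT, where the highest value was again replicate 1. Its difference was −0.20 (SE 0.154) with all arrays and −0.06 (SE 0.109) without the 4.

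Esterases, hydrolases and the other phase I enzymes were lower in K289R in 5 of 6, with a median of −0.13 and 0 past the threshold. Ces1f, a carboxylesterase of ester drugs and lipids, had the largest difference on the list. It ran from 8.47 through 8.84 to 9.79 in K289R, against 8.42 through 9.21 to 10.48 in WT. The WT arrays enclosed the K289R arrays on both sides, and the difference was −0.44 (SE 0.262, limma adjusted p = 0.650), or −0.29 (SE 0.290) without the 4 Fabp6 arrays. Ces2a, the intestinal type of carboxylesterase, covered 10.84 to 12.04 in K289R and 11.16 to 11.83 in WT (difference −0.15, SE 0.155). Ephx2, the soluble epoxide hydrolase of fatty acid epoxides, covered 11.20 to 12.34 in K289R and 11.23 to 12.28 in WT (−0.10, SE 0.180). Cbr1, a carbonyl reductase, covered 10.63 to 11.60 in K289R and 10.91 to 11.58 in WT (−0.15, SE 0.124). A dimmer second probe set of Cbr1 gave −0.09. Fmo5, a flavin-containing monooxygenase, differed by −0.11 (SE 0.079), and Ephx1, the microsomal epoxide hydrolase and the narrowest of the 6 in spread, by 0.01 (SE 0.053).

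Among genes of sulfation and glucuronidation, 2 of 5 were higher and 3 lower, with a median of −0.03. Sult2b1, which sulfates cholesterol and other sterols, differed by −0.13 (SE 0.064, limma adjusted p = 0.60), with 10.69 to 11.17 in K289R and 10.94 to 11.21 in WT. Sult1b1 and Sult1d1, which sulfate small phenols and amines, differed by −0.03 (SE 0.068) and 0.07 (SE 0.081). Ugdh, which makes the UDP-glucuronic acid that glucuronidation uses, differed by −0.10 (SE 0.080). Ugt2b34, a glucuronosyltransferase, had the smallest spread on the list, 12.67 to 12.77 in K289R and 12.64 to 12.79 in WT, and differed by 0.03 (SE 0.040).

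Genes of the same pathways outside the list were read from the same fit. Of 187 listed, 126 were tested, 0 passed in limma, and 15 had an unadjusted p under 0.05 (11.9%, against 8.48% of all genes), 5 higher and 10 lower in K289R. In all, 58.7% of the 126 were lower, against 52.0% of all genes. Further glutathione transferases were lower in 9 of 12, with a median of −0.13, and 3 had an unadjusted p under 0.05, namely Gsto1 (−0.13, SE 0.044), Gstt3 (−0.14, SE 0.054) and Gstt2 (−0.19, SE 0.076). Further P450 genes and partners were lower in 20 of 33, with Cyp4f40 at −0.24, Cyp2b19 at −0.23 and Cyp2d13 at 0.18. Further esterases and phase I enzymes were lower in 26 of 45, with the aldo-keto reductase gene Akr1c19 at −0.54 (SE 0.154, limma adjusted p = 0.336), the carbonyl reductase gene Cbr3 at 0.21 and the monoamine oxidase gene Maoa at 0.13. Akr1c19 covered 5.88 to 6.80 in K289R and 6.48 to 7.49 in WT, close to the intensity filter. Further conjugation enzymes were lower in 8 of 18, with Ugt2b35 at −0.25, Ugt2b1 at 0.20 and Ugp2 at 0.16, and further drug transporters in 11 of 18, with Abcc10 at −0.16, Abcc1 at 0.14 and Slc22a18 at −0.14.

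Regulators of xenobiotic genes were measured on the same arrays. Of 20 tested, 6 were higher and 14 lower in K289R, 0 passed in limma, and 4 (20%) had an unadjusted p under 0.05. Of all genes, 52.0% were lower and 8.48% had a p this low. Dbp and Hlf, clock-driven factors that act on detoxification genes in mouse liver, differed by −0.24 (SE 0.084, limma adjusted p = 0.435) and −0.24 (SE 0.087, limma adjusted p = 0.457), and their relative Tef by −0.14. Dbp ran from 7.94 through 8.08 to 8.39 in K289R, against 8.04 through 8.37 to 8.64 in WT. Hlf ran from 7.51 through 7.75 to 7.92 in K289R, against 7.72 through 7.94 to 8.17 in WT. Rxra, the common partner of PXR and CAR, differed by −0.16 (SE 0.068), and Nr0b2, a corepressor of LRH-1, by 0.25 (SE 0.119).

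The xenobiotic receptors themselves had unadjusted p values above 0.05. PXR (Nr1i2) differed by −0.13 (SE 0.105), CAR (Nr1i3) by −0.17 (SE 0.149) and AHR (Ahr) by −0.01 (SE 0.064). For the AHR partner Arnt, its target and repressor Ahrr and its target Tiparp the differences were 0.04, 0.06 and 0.08. For NRF2 (Nfe2l2), its inhibitor Keap1 and its competitor Bach1 they were −0.09, −0.06 and 0.02. Hnf4a and Hnf4g differed by −0.02 (SE 0.051) and 0.05 (SE 0.061), Vdr by −0.04, Nr1h4 by −0.0023, Ppara by −0.12 and Nr5a2 itself by −0.14 (SE 0.092).

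Markers of other cell types differed between the genotypes to varying degrees. The mean of 10 smooth muscle markers was 10.40 to 10.87 in K289R and 10.41 to 10.60 in WT. The difference was 0.19 (exact permutation p = 0.0198, 0.119 adjusted over 12 lists). Of the 10 markers, 8 were higher and 2 lower in K289R, and for 2 the genotypes did not overlap (0.167% of all genes). Acta2, without overlap, covered 12.59 to 12.85 in K289R and 12.52 to 12.58 in WT. All 8 fibroblast and matrix markers were higher in K289R, with list means of 9.61 to 10.09 in K289R and 9.48 to 9.96 in WT (difference 0.26, exact permutation p = 0.0233, adjusted 0.119). The 14 epithelial markers had list means of 12.84 to 12.89 in K289R and 12.81 to 12.91 in WT, and a difference of 0.0041 (exact permutation p = 0.778). When the smooth muscle mean entered the fit, the differences were −0.22 for Mgst3, −0.24 for Gstm2, −0.21 for Gstt1, −0.12 for Gstp1 and 0.58 for Cyp2c55, and 0 of the 36 genes passed. The part of the fibroblast markers in these values was not tested. Mgst3 and Ephx1 are the 2 tested genes of the list on chromosome 1, which carries Nr5a2, and lie 148 and 274 tested genes away from it.

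Spread between mice of a genotype was wide for many of these genes. The within-genotype SD of 20 of the 36 (55.6%) was above the 75th percentile of all tested genes (0.164), among them 10 of 13 P450 genes, both pumps, 4 of 6 esterases and other phase I enzymes, 4 of 10 glutathione transferases and 0 of 5 sulfation and glucuronidation genes. The median SD was 0.205, against 0.127 over all genes, on the log2 scale. Such spread was not particular to the list. Of the 126 tested genes of these pathways outside it, 59 (46.8%) were above the same percentile. So were 7 of 8 proximal small intestine markers, but only 2 of 14 epithelial markers. On the list the widest were Cyp2c29 (SD 0.750), Cyp3a25 (0.615), Cyp2c66 (0.594), Ces1f (0.576), Cyp2u1 (0.439) and Ephx2 (0.392). The narrowest was Ugt2b34 (0.0457), whose levels spanned 1.10-fold over the 14 arrays. All these SDs include the 4 Fabp6 arrays, and their size without those arrays was not computed. WT replicate 1 and K289R replicate 7, both with Fabp6 signal, had the lowest Cyp2c66 level of their genotype (8.40 and 8.58).

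**Figure D3:**
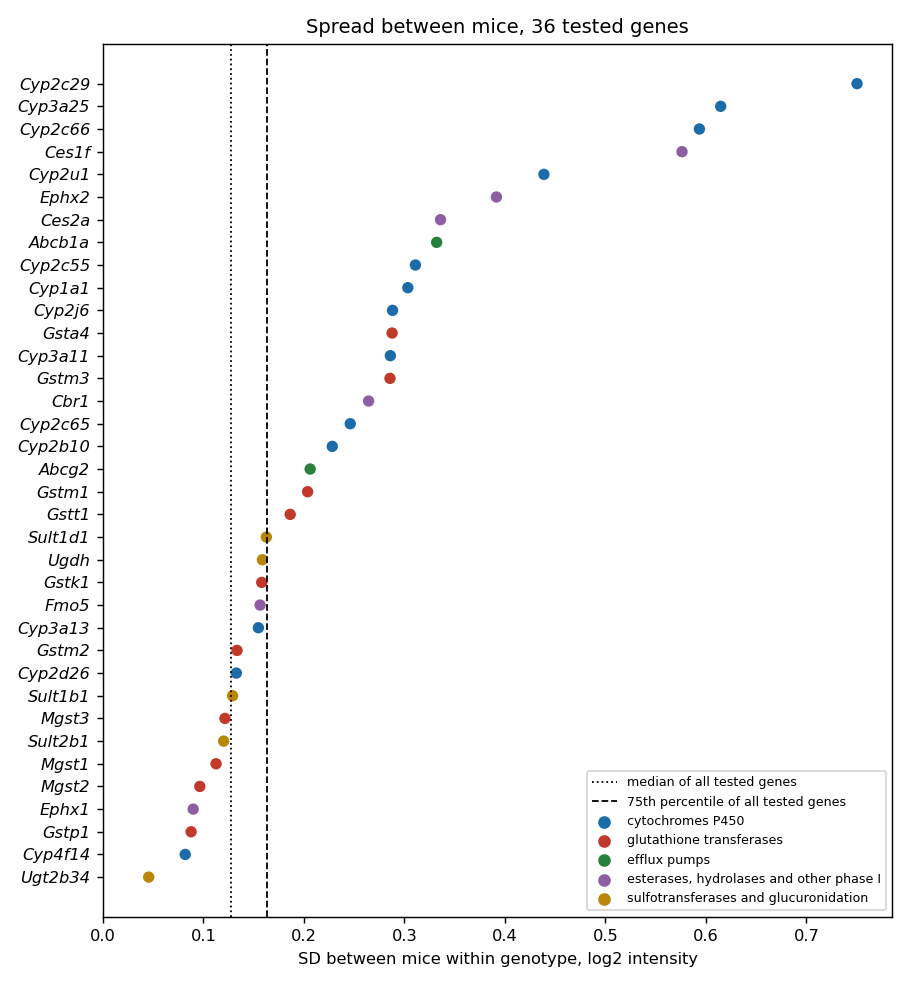
Within-genotype SD of log2 intensity for the 36 tested genes, pooled over both genotypes with all 14 arrays, coloured by role. The dotted line is the median of all tested genes (0.127) and the dashed line their 75th percentile (0.164). Cyp2c29 lies farthest to the right at 0.750 and Ugt2b34 farthest to the left at 0.0457.

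Part of that spread ran along with markers of gut region, a relation examined after the values had been seen and in which both values of a point come from 1 array. The mean of 8 proximal small intestine markers was 10.01 to 10.35 in K289R and 9.99 to 10.44 in WT (difference −0.05, exact permutation p = 0.532). In a limma fit of every tested gene on that mean, 4 of the 36 genes (11.1%) passed after adjustment over all 18010, against 1.04% of all genes, and all 4 rose with the mean, as 0.738% of all genes did. An r of at least 0.6 was found for 11 of the 36 (30.6%), against 3.83% of all genes, and 4 of these 11 kept such an r without the 4 Fabp6 arrays (Cyp3a25, Ephx2, Gstt1 and Gsta4). Over the other 10 arrays 7 of the 36 (19.4%) had an r of at least 0.6, against 13.0% of all genes. Without K289R replicate 7 alone the count was 6. With all arrays, an r of −0.6 or less was found for 0, against 2.24%. The 4 that passed were Cyp3a25 (r = 0.88, rho = 0.85, adjusted p = 0.00157), Ephx2 (r = 0.87, rho = 0.84, adjusted p = 0.00249), Cbr1 (r = 0.81, rho = 0.77, adjusted p = 0.0154) and Cyp2c66 (r = 0.78, rho = 0.61, adjusted p = 0.0180).

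The permutation p of r was 5e-05 for Cyp3a25, 6e-05 for Ephx2, 0.00042 for Cbr1 and 0.0019 for Cyp2c66, and that of rho was 0.00018, 0.00041, 0.00156 and 0.0239, in the same order. Within K289R arrays r was 0.90 for Cyp3a25, 0.87 for Ephx2, 0.85 for Cbr1 and 0.92 for Cyp2c66, and within WT arrays it was 0.87, 0.90, 0.85 and 0.75. Without the 2 arrays farthest from the median of the marker mean, WT replicate 1 and K289R replicate 7, r was 0.79 for Cyp3a25, 0.76 for Ephx2, 0.60 for Cbr1 and 0.32 for Cyp2c66, so the relation of Cyp2c66 rests on those arrays. Without the 4 Fabp6 arrays r was 0.84, 0.68, 0.52 and 0.23 over 10 arrays, and 0 of the 36 passed, with the lowest adjusted p on the list that of Cyp3a25 (0.0661), where 0.0777% of all genes passed. Abcb1a, which did not pass, had r = −0.44 over all arrays, 0.42 without the 4 Fabp6 arrays, 0.17 within K289R and −0.90 within WT. Leaving out K289R replicate 7 alone left 2 genes past the threshold, and leaving out WT replicate 5 gave 7.

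**Figure D4:**
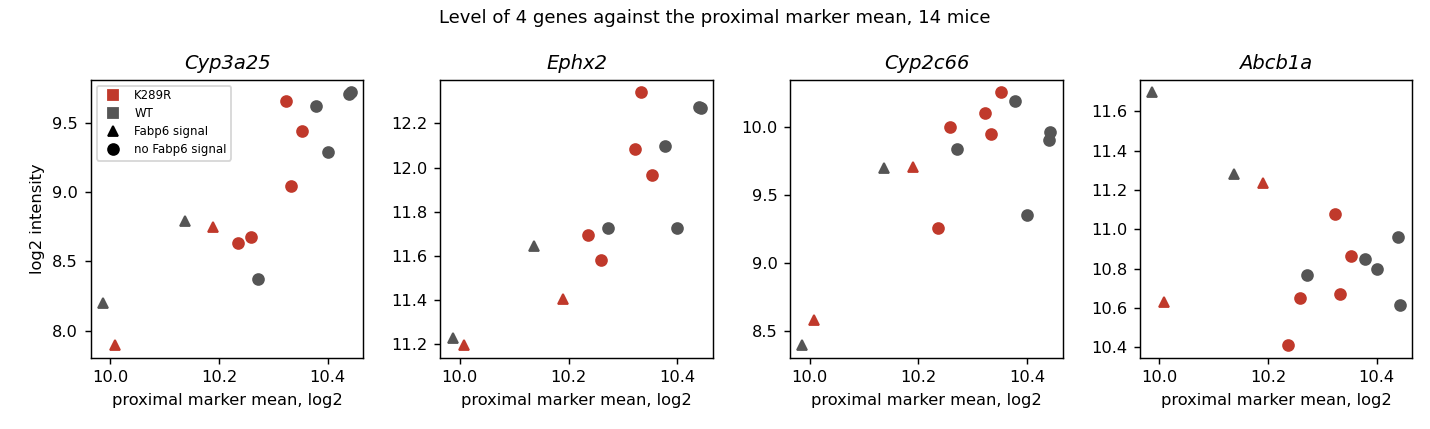
Log2 intensity of Cyp3a25, Ephx2, Cyp2c66 and Abcb1a against the mean log2 level of 8 proximal small intestine markers, 1 point per mouse, K289R in red and WT in grey, with triangles for the 4 arrays with Fabp6 signal. Cyp3a25 (r = 0.88), Ephx2 (r = 0.87) and Cyp2c66 (r = 0.78) climb with the marker mean, while Abcb1a (r = −0.44, and 0.42 without the triangles) is highest on WT replicate 1, at the lower end of it. The vertical axes differ between panels.

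WT replicate 1, the array with the most Fabp6 signal, lay at an extreme for several genes. It had the highest level of the 14 arrays for Abcb1a (11.70), Ces1f (10.48) and Abcg2 (10.85), and the lowest for Cyp2c66 (8.40) and Cyp2b10 (11.82). K289R replicate 7, which also had Fabp6 signal, was the lowest of its genotype for 17 of the 36 genes, among them Cyp3a11, Cyp3a25, Gsta4 and Gstm2. WT replicate 1 was the lowest of its genotype for 9 of the 36. The same counts over all tested genes were not made, so neither count can be read as particular to these genes.

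**Figure D5:**
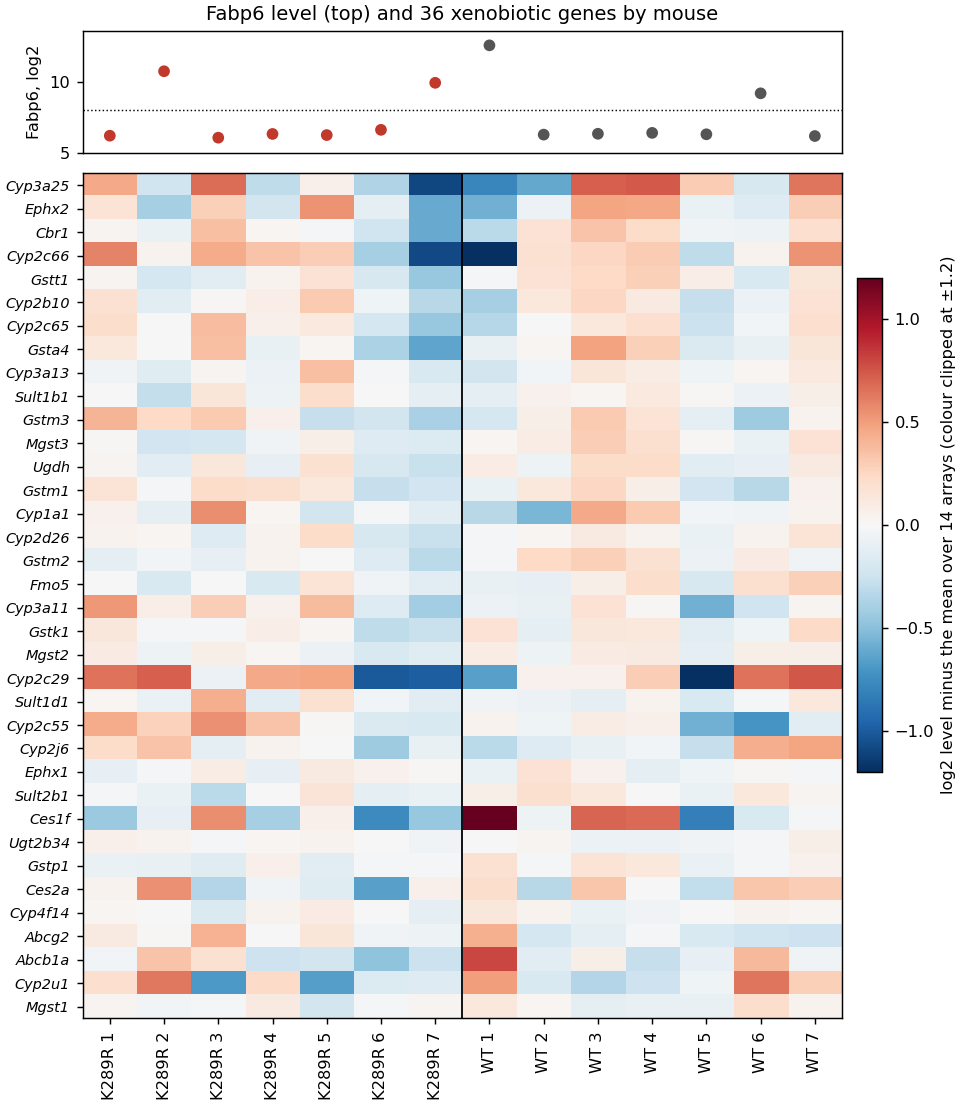
Top, log2 level of Fabp6 on each array, with a dotted line at the limit of 8. Bottom, each of the 36 genes on each array as log2 level minus its mean over the 14 arrays, K289R arrays left and WT arrays right, ordered from the highest to the lowest r with the proximal marker mean. K289R replicate 7 and WT replicate 1 are low for Cyp3a25, Ephx2 and Cyp2c66 near the top, and WT replicate 1 is high for Ces1f, Abcg2 and Abcb1a lower down.

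Pairs of genes with a shared family or regulator were compared across the 14 mice. Of 10 pairs planned, 8 could be measured, and 4 passed after adjustment over the 8. Cyp2c65 and Cyp2c66, neighbours in the Cyp2c family, had r = 0.93 (rho = 0.94, permutation p = 1e-05, the smallest that the resamples can give, adjusted 8e-05), with 0.95 within K289R and 0.91 within WT. Gstm1 went with Gstm3 (r = 0.77, rho = 0.75, permutation p = 0.00172, adjusted 0.00459) and with Gsta4 (r = 0.75, rho = 0.79, permutation p = 0.0012, adjusted 0.00459). Cyp3a11 went with Cyp2b10 (r = 0.71, rho = 0.68, permutation p = 0.00405, adjusted 0.0081). Without the 2 arrays farthest from the median of the first gene, these r values were 0.91, 0.67, 0.78 and 0.65. Without the 4 Fabp6 arrays they were 0.91, 0.66, 0.78 and 0.80, and the pair of Gstm1 and Gstm3 no longer passed (adjusted permutation p = 0.0779).

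The other 4 pairs did not pass. Abcb1a and Abcg2 had r = 0.41 (rho = 0.16, permutation p = 0.143, adjusted 0.223) and Cyp3a11 and its regulator gene Nr1i2 had r = 0.39 (rho = 0.22, permutation p = 0.167, adjusted 0.223). For the pumps r was 0.49 within K289R and 0.68 within WT, where replicate 1 was highest for both. For Cyp3a11 and Nr1i2 it was 0.49 within K289R and 0.75 within WT. These values rest on 7 arrays each and were not tested. Without the 4 Fabp6 arrays r was 0.27 for the pumps and 0.34 for Cyp3a11 and Nr1i2. Cyp1a1 and Ahrr, both AHR targets, had r = 0.13 (rho = 0.16, permutation p = 0.668, adjusted 0.763), and Cyp2b10 and Dbp had r = −0.06 (rho = −0.02, permutation p = 0.826, adjusted 0.826). Within K289R and within WT, r was 0.31 and 0.03 for Cyp1a1 and Ahrr, and 0.17 and −0.18 for Cyp2b10 and Dbp.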

How the data were processed

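Whole-tissue jejunal RNA of 14 mice was measured, 7 per genotype, which the sample titles and the genotype label give. Per the labels' protocols, 100 ng of total RNA was amplified and 5500 ng of cDNA was fragmented, labelled and hybridised. The values are the authors' deposited probe set intensities on a linear scale (7.40 to 20050.3), and the submitters' processing notes name Affymetrix Expression Console, while no source used here gives the background correction, normalization or genome build. Their near-equal medians are those of arrays brought to 1 scale, so a global shift between genotypes cannot be seen, and background left in the values shrinks differences of dim genes.

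Log2 of the intensities was taken, as the design provided for linear values. Of 41345 probe sets, 23521 had 1 symbol in the platform annotation, 1814 had several and 16010 were unnamed. Each of 22180 genes was represented by its single-symbol probe set with the highest mean, and the 4170 genes below the 25th percentile of probe sets (log2 6.25, intensity 75.9) were left out. Differences are K289R minus WT, tested with limma 3.58.1 in R 4.3.3 without covariates, 2-sided, with Benjamini-Hochberg adjustment over 18010 genes and a threshold of 0.05. SE and intervals are limma's moderated ones. Single genes and marker list means were also put through an exact 2-sided permutation test that enumerated every division of the mice into 7 and 7, with a smallest possible p of 0.000583. Correlations have 2-sided permutation p values from 100000 resamples. Both limma fits were checked on simulated data. The differences simulated between genotypes were larger than any on the list, so detection of smaller ones was not checked. The number of arrays limits the precision.

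The members, gene lists and motifs were chosen with earlier results of these data known. Named genes are those with an unadjusted p under 0.05, an SD above the 75th percentile, or the widest or narrowest SD of their role, all regulators, up to 3 of each other list by p, and the genes of the pairs. The Fabp6 limit, too, came from earlier results. The regressions on the proximal marker mean and their alternatives were added after seeing the data. The replicate numbers did not pair the mice: same-numbered arrays deviated with r between −0.151 and 0.169, and 0 of 7 correlated best with their own number. The labels name no cage, sex or scan day of a mouse, so none could be used as a batch. They give 5 mice per cage but not which mice shared one, and the tests treat the mice as independent.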

Additional observations from a re-analysis of the deposited data

Results flagged for a closer look

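Each genotype's 7 arrays were screened for a highest or lowest array set apart from the rest, by Dixon's limit of 0.568 for the gap over the range. The screen covered 96 groups, 72 of them of the xenobiotic genes and the rest of marker lists, and 5% of groups are set apart by chance. It found 6. Cyp3a13 stood at 12.98 on K289R replicate 5, where the other K289R arrays lay between 12.43 and 12.65. Cyp1a1 stood at 8.23 on K289R replicate 3, against 7.46 to 7.73 on the others. Mgst1 stood at 9.67 on K289R replicate 5, against 9.86 or higher on the others. Abcg2 stood at 10.85 on WT replicate 1, against 10.17 to 10.41, and on the same array the distal small intestine list mean stood at 11.18, against 8.79 to 9.82. The mean of the T and intraepithelial lymphocyte markers stood at 7.62 on K289R replicate 2, against 8.60 to 9.31.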

How the results depend on the processing

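Under all alternatives run, 0 of the 36 genes passed. The genes past the threshold numbered 8, against 14 with array weights, 0 with a replicate block (the numbers do not pair the mice) and 5 without the 4 Fabp6 arrays, and 4 to 14 when 1 array was left out, with 4 without K289R replicate 4, WT replicate 3 or WT replicate 4, 5 without K289R replicate 7 and 14 without K289R replicate 5. The xenobiotic genes with an unadjusted p under 0.05 then numbered 3 to 6, with 3 without K289R replicates 2 or 3 or WT replicates 3, 4 or 7, and their median difference ran from −0.10 to −0.03. Signs turned for some differences, not all of them small, as Cyp3a25 had −0.23 in the fit without covariates. With the smooth muscle covariate they turned for Cyp3a25 (0.14), Cyp2b10 (−0.0166), Cyp2c29 (−0.26), Ephx1 (−0.000168) and Sult1b1 (0.0131). With array weights they turned for Cyp2c65 (−0.00277), Cyp1a1 (−0.038) and Ephx1 (−0.00572). Quantile normalization turned that of Ephx1 (−0.00286), and the mean over probe sets that of Cyp2c29 (−0.0808). Without the Fabp6 arrays they turned for Cyp4f14 (0.00963), Gstm3 (−0.0422), Mgst1 (0.0229) and Sult1b1 (0.00214), the distal marker mean (0.0611) and the pair of Cyp2b10 and Dbp (r = 0.20). Gstm1 and Gstm3 gave r = 0.66 and the genes passing with the proximal mean numbered 0 without the Fabp6 arrays, and 2 to 7 with 1 array left out. The xenobiotic genes with an r of at least 0.6 with that mean numbered 7 without the Fabp6 arrays and 6 to 14 with 1 array left out. The causes were not tested.

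With 1 array left out, further ranges that crossed 0 were, for differences, −0.0814 to 0.00993 for Cyp3a13, −0.0399 to 0.0818 for Cyp2b10, −0.16 to 0.24 for Cyp2c29, −0.0298 to 0.11 for Cyp2c65, −0.13 to 0.26 for Cyp2c66, −0.0476 to 0.12 for Cyp1a1, −0.0678 to 0.0675 for Cyp2j6, −0.00511 to 0.0967 for Gstm1, −0.0282 to 0.11 for Gstm3, −0.0537 to 0.0026 for Mgst1, −0.00781 to 0.0400 for Ephx1 and −0.0657 to 0.0166 for Sult1b1. For marker list means they were −0.23 to 0.24 (distal small intestine), −0.00345 to 0.0127 (epithelium), −0.0392 to 0.0108 (pancreatic acinar) and −0.0191 to 0.0639 (sex-linked). For pairs, r was −0.036 to 0.32 for Cyp1a1 and Ahrr and −0.18 to 0.10 for Cyp2b10 and Dbp. The smooth muscle mean difference was 0.15 to 0.23 and passed without K289R replicate 3 (exact permutation, adjusted p = 0.0210).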

Other observations

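Marker lists of other cells and regions, as mean log2 levels with exact permutation p values adjusted over 12 lists, gave the following. The 8 T and intraepithelial lymphocyte markers had list means of 7.62 to 9.31 in K289R and 7.85 to 9.26 in WT, a difference of 0.33 (adjusted p = 0.800). For B and plasma cells the difference was 0.18, for goblet and Paneth cells 0.03, for distal small intestine −0.06, for colon −0.03, for pancreatic acinar cells −0.01 and for sex-linked genes 0.03, all with an adjusted p of 0.800 or more. The 7 tested hepatocyte markers had list means of 7.97 to 8.10 in K289R and 8.03 to 8.18 in WT, a difference of −0.07 (unadjusted p = 0.0297, adjusted p = 0.119).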
